A study of Mus musculus with 8 samples.

Results

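RNA of tumor-associated macrophages (TAMs) was examined for 9 genes commonly used as markers of monocytes newly recruited to a tissue, namely Ly6c1, Ly6c2, Ly6a, Ly6e, Ly6i, Plac8, Vcan, Chil3 and S100a4. They were taken from the deposited tables by gene symbol, and all 9 were found among the 16786 genes with a value in the 7 complete tables. TAMs were CD45+F4/80+ cells sorted by flow cytometry from B16 tumors on day 14 after injection; B16 is a pigmented mouse melanoma cell line that grows in C57BL/6 mice. There were 4 libraries from WT mice (TAM-WT) and 4 from Colec11-/- mice (TAM-KO), and per the study's methods the mice were males of 8 to 10 weeks, the knockout strain had been crossed back to C57BL/6 for 10 generations or more, WT littermates served as controls, and over 95% of sorted cells were in the gate. Colec11 encodes collectin-11, a soluble lectin of innate immunity, and is absent from every cell of the knockout mice, so the genotype is that of the whole host and not of the TAMs alone, while the B16 cells are the same in both groups. The table of TAM-KO replicate 1 lists 15740 of 21051 genes, and the other 7 libraries held from 16225362 to 17280267 reads on genes. Colec11 itself had at most 4 estimated reads in any library of either group, so its level does not check the genotype.

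Circulating monocytes of the mouse fall into a classical population, high in the surface antigen Ly6C and in the chemokine receptor CCR2, and a nonclassical population with little Ly6C. Classical monocytes enter tumors and mature into macrophages, losing Ly6C as complement C1q, MerTK and other macrophage genes rise. Ly6C is the product of Ly6c1 and Ly6c2, members of a family of small proteins held to the cell surface by a glycosylphosphatidylinositol anchor, and Ly6a (Sca-1), Ly6e and Ly6i are neighbors of the same family. Several of the 9 genes are not restricted to monocytes: Ly6a and Ly6C are also made by activated lymphocytes and by endothelium, and Ly6a and Ly6e are induced by interferons.

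The question was whether these genes differed between TAM-WT and TAM-KO. Ly6a, Ly6i, Ly6c2 and Plac8 rose in TAM-KO, by 7.19-fold, 3.60-fold, 3.47-fold and 2.66-fold in the fit, and none of the 9 fell. Ly6e, Ly6c1 and Chil3 had higher means in TAM-KO without passing the test, and Vcan and S100a4 overlapped between the groups with estimates below 0. The test was edgeR's quasi-likelihood test on RSEM's estimated counts, with Benjamini-Hochberg adjustment over the 12412 genes tested and an adjusted p of at most 0.05. It called 4 of the 9 genes higher and 0 lower, where 9.81% of all genes tested were called, 4.58% higher and 5.24% lower. The same 4 also passed a minimum fold change of 2, which 2.53% of all genes tested did in either direction and 1.41% upward. The median log2 fold change of the 9 was 1.27, against 0.00 over all genes tested. Of the 4 calls, Plac8 passed in all 8 fits that left out 1 library, whereas Ly6i passed in 3 and Ly6c2 and Ly6a in 2 each. The fits of Ly6c2 and Ly6a leave out TAM-KO replicate 1, whose own table lacks these genes. With its values filled in from another deposited table, 2 of the 9 passed, Ly6c2 and Plac8, as did 1079 of 12399 genes tested. Ly6a and Ly6i then missed (edgeR's adjusted p = 0.0516 and 0.0543).

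The 5 Ly6 genes lie on chromosome 15 within 157.0 kb, and their likeness bears on how far their reads can be told apart. In GRCm38.p6 (RefSeq), Ly6e is at chr15:74955025-74959904, Ly6i at chr15:74979534-74983434, Ly6a at chr15:74994877-74998031, Ly6c1 at chr15:75044018-75048920 and Ly6c2 at chr15:75108161-75112066. The coding sequences of Ly6c1 and Ly6c2, each 393 bases without the stop codon in the GENCODE transcripts, were 97.7% identical and differed at 9 positions, with 188 identical bases in a row. Ly6a and Ly6i were 86.3% identical over 402 bases, with 80 identical bases in a row at most, while Ly6e was 49.8% to 52.7% identical to the other 4. The coding bases of the last coding exon are shown for both close pairs, in the direction of transcription (minus strand), with capitals where the 2 members of a pair differ. The Ly6c pair, from chr15:75045405-75045610 and chr15:75108546-75108751, differs at 3 of 206 bases.
Ly6c1: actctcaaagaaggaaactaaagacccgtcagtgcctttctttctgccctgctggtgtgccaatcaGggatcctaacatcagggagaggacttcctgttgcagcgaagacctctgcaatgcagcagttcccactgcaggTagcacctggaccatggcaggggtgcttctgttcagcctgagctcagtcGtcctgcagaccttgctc
Ly6c2: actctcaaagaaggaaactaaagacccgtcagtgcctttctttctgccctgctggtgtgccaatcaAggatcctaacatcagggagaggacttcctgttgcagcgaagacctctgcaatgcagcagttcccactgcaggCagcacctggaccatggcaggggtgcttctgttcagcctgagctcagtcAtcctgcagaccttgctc
The second pair, from chr15:74995265-74995479 and chr15:74979917-74980131, differs at 40 of 215 bases.
Ly6a: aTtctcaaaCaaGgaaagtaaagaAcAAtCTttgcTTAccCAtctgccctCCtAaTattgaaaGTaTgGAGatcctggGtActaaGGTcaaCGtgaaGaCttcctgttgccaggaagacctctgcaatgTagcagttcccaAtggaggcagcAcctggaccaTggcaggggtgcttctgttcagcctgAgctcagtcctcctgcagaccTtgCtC
Ly6i: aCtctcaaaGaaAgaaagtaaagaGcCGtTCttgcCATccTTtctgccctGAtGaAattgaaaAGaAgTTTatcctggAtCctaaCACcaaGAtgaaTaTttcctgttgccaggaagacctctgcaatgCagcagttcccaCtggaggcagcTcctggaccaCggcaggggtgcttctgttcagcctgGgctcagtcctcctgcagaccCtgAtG

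Levels are given in FPKM, fragments scaled to gene length and to the mapped fragments of each library, which the authors computed with RSEM and which can be compared between genes. The 5 values given for TAM-KO replicate 1 (Ly6c1, Ly6c2, Ly6a, Ly6e and Chil3) come from the deposited table of the whole series, because that library's own table does not list these genes; that table covers 3996 genes, those with a difference between genotypes in the authors' comparison. Those values enter levels and means but not the fit, which then rests on 4 TAM-WT and 3 TAM-KO libraries.

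**Figure D1:**
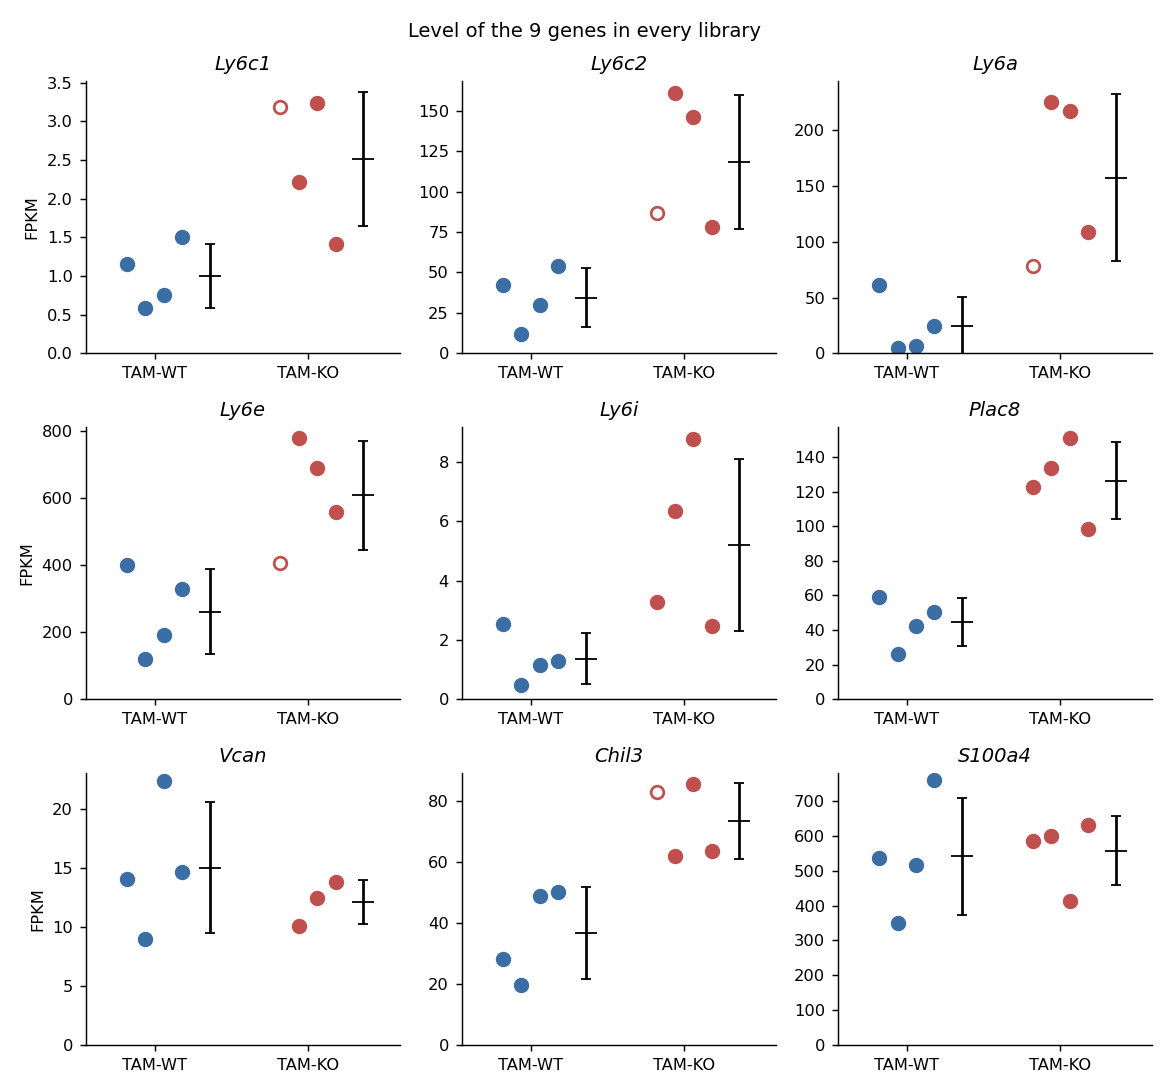
FPKM of each gene in each library (vertical axis, linear and starting at 0), with TAM-WT in blue and TAM-KO in red; open circles are values of TAM-KO replicate 1 taken from the table of the whole series, and black bars give mean ± SD, cut at 0 for Ly6a in TAM-WT. The groups do not overlap for Ly6c2, Ly6a, Ly6e, Plac8 and Chil3, and TAM-WT replicate 2 is the lowest TAM-WT library in all 9 panels.

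Ly6c2, which held most of the reads estimated for Ly6c1 and Ly6c2, measured 42.0, 12.04, 29.6 and 54.2 FPKM in TAM-WT replicates 1 to 4. In TAM-KO replicates 1 to 4 it measured 87.0, 161, 146 and 78.4 FPKM. All TAM-KO libraries lay above all TAM-WT libraries, with means of 118 ± 41.5 (SD, n = 4) and 34.5 ± 18.02 (SD, n = 4), and the log2 fold change was 1.79 ± 0.44 (SE) with edgeR's adjusted p = 0.0441. With TAM-KO replicate 1 filled in, the log2 fold change was 1.67 and edgeR's adjusted p 0.0417.

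Ly6c1 was far lower, at 1.16, 0.59, 0.75 and 1.51 FPKM in TAM-WT and 3.18, 2.22, 3.24 and 1.42 FPKM in TAM-KO. The lowest TAM-KO library, replicate 4, lay below the highest TAM-WT library, and the log2 fold change of 1.02 ± 0.40 (SE) did not pass (edgeR's adjusted p = 0.128). These levels rest on 6 to 30 estimated reads per library. Ly6c2 held 95.2% to 98.8% of the estimated reads of both genes, and its FPKM was 33.0 ± 8.55 (SD, n = 4) times that of Ly6c1 in TAM-WT and 50.1 ± 18.9 (SD, n = 4) times in TAM-KO. Because RSEM has to divide reads between 2 such similar genes, their estimated counts were also summed before the fit. The sum gave a log2 fold change of 1.78 ± 0.44 (SE, edgeR's adjusted p = 0.0440), close to that of Ly6c2 by itself.

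Ly6a, the stem cell antigen Sca-1, had the largest fold change of the 9 and, in TAM-WT, the widest spread. It measured 61.2, 4.63, 6.51 and 24.3 FPKM in TAM-WT, a range of 13.2-fold between mice of 1 genotype. In TAM-KO it measured 78.3, 225, 217 and 108 FPKM. The groups did not overlap, but the closest pair of libraries, TAM-KO replicate 1 and TAM-WT replicate 1, differed by 1.28 times. The log2 fold change was 2.85 ± 0.74 (SE, edgeR's adjusted p = 0.0482), and with TAM-KO replicate 1 filled in it was 2.62 with an adjusted p of 0.0516, on the far side of the threshold. Without TAM-WT replicate 1, the highest of its group, the log2 fold change was 3.83 (edgeR's adjusted p = 0.0169). That was the smallest adjusted p of the 8 fits with 1 library left out, of which 2 passed. The largest was 0.147, without TAM-KO replicate 2, and the log2 fold changes ran from 2.49 to 3.83.

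Ly6e, the most abundant Ly6 gene, measured 400, 120, 192 and 330 FPKM in TAM-WT and 406, 780, 689 and 558 FPKM in TAM-KO. TAM-KO replicate 1 and TAM-WT replicate 1 were only 1.02 times apart, so the groups touched without overlap. The log2 fold change of 1.27 ± 0.35 (SE) missed the threshold (edgeR's adjusted p = 0.0578), and DESeq2 gave an adjusted p of 0.00367. With TAM-KO replicate 1 filled in, the log2 fold change was 1.11 and edgeR's adjusted p 0.0727. Among all 16786 genes ranked by FPKM within a library, Ly6e stood at 233 to 754 in TAM-WT and at 112 to 162 in TAM-KO replicates 2 to 4.

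Ly6i, a gene of low level in these cells, measured 2.54, 0.46, 1.14 and 1.30 FPKM in TAM-WT and 3.27, 6.34, 8.77 and 2.46 FPKM in TAM-KO. TAM-KO replicate 4 lay below TAM-WT replicate 1, so the groups overlapped. The log2 fold change over all 8 libraries was 1.85 ± 0.50 (SE, edgeR's adjusted p = 0.0465), and it rests on 5 to 95 estimated reads per library. With the table filled in for other genes, its adjusted p was 0.0543 and the call was lost.

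**Figure D2:**
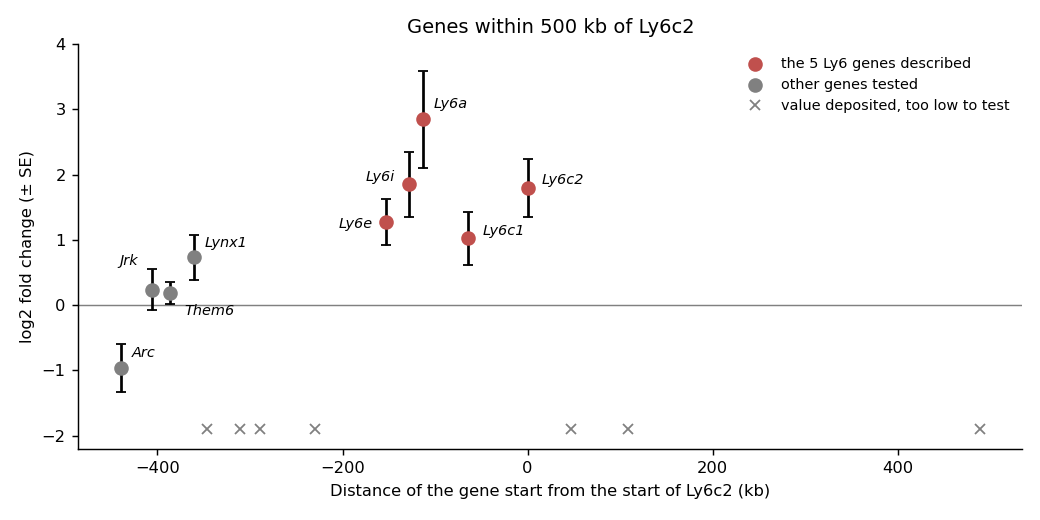
Log2 fold change (TAM-KO over TAM-WT, ± SE, vertical axis) of genes within 500 kb of Ly6c2 against the distance of their starts from that of Ly6c2 (kb, horizontal axis); crosses at the bottom mark genes with a deposited value that were too low to test. The 5 Ly6 genes described lie between 1.02 and 2.85, and the other 4 tested genes lie between -0.97 and 0.73.

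The neighborhood of these genes gave few other values. RefSeq lists 49 genes within 500 kb of Ly6c2, of which 31 are protein coding, 16 had a deposited value and 9 were tested. Besides the 5 described, the tested genes were Arc, Jrk, Them6 and Lynx1, and 0 of these 4 were called (log2 fold changes of -0.97, 0.23, 0.19 and 0.73). From a list of 13 other Ly6 family genes, 7 had a value and 1, Lynx1, was tested. Ly6d was the most abundant of them, with TAM-WT at 0.41 ± 0.20 FPKM and TAM-KO at 0.75 ± 0.35 FPKM (SD, n = 4 each). Ly6g, the antigen that defines neutrophils, had at most 0.19 FPKM in any library.

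Plac8, which encodes a small cysteine-rich protein abundant in myeloid cells, lies on chromosome 5 (chr5:100551589-100572253) and gave the steadiest difference. It measured 58.9, 26.2, 42.2 and 50.5 FPKM in TAM-WT and 123, 134, 151 and 98.4 FPKM in TAM-KO. Between TAM-WT replicate 1 and TAM-KO replicate 4, the closest pair across groups, the gap was 1.67-fold, the widest among the 9 genes. Its log2 fold change over 8 libraries was 1.41 ± 0.21 (SE, edgeR's adjusted p = 0.0123). Its coefficient of variation, 31.4% over TAM-WT and 17.5% over TAM-KO, compares with 109% and 47.7% for Ly6a.

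Chil3 (Ym1), a secreted chitinase-like lectin of monocytes and alternatively activated macrophages, lies at chr3:106147554-106167564. It measured 28.3, 19.6, 48.9 and 50.3 FPKM in TAM-WT and 83.0, 62.1, 85.8 and 63.6 FPKM in TAM-KO. All TAM-KO libraries were above all TAM-WT libraries, and the mean was 2.00 times as high, yet the log2 fold change of 0.82 ± 0.34 (SE) did not pass on 4 and 3 libraries (edgeR's adjusted p = 0.144). Filled to 8 libraries it was 0.87 ± 0.30 (SE) with an adjusted p of 0.0901. Chil4, a close copy of Chil3, averaged 0.02 FPKM over TAM-WT and was listed at 0 in the 3 TAM-KO libraries with a value, and the 4 other chitinase and chitinase-like genes with a value, Chil4 among them, summed to at most 0.25 FPKM in any complete library and were too low to test. Chil1, the most abundant of these 4, measured 0 to 0.12 FPKM in TAM-WT and 0.13 to 0.21 FPKM in TAM-KO replicates 2 to 4. In TAM-KO replicate 1 it measured 0.89 FPKM by the table of the whole series.

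Vcan encodes versican, a large proteoglycan of the extracellular matrix made by classical monocytes, and lies at chr13:89655309-89743027. It measured 14.1, 8.98, 22.4 and 14.6 FPKM in TAM-WT and 10.1, 12.5 and 13.8 FPKM in TAM-KO replicates 2 to 4, and replicate 1 had no value in either table. The groups overlapped (log2 fold change -0.38 ± 0.30 SE, edgeR's adjusted p = 0.426).

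S100a4, a calcium-binding protein of motile cells, lies at chr3:90603770-90606045. It measured 536, 351, 518 and 762 FPKM in TAM-WT and 587, 599, 412 and 632 FPKM in TAM-KO. The means were 542 ± 169 (SD, n = 4) and 558 ± 98.8 (SD, n = 4), the log2 fold change was -0.04 ± 0.22 (SE, edgeR's adjusted p = 0.931), and its sign turned with the scaling used.

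**Figure D3:**
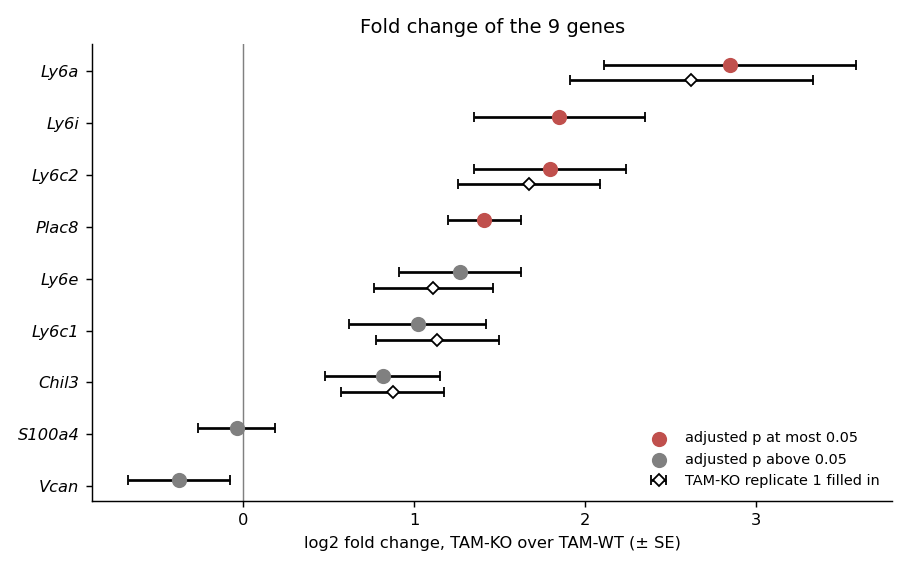
Log2 fold change of each gene (horizontal axis, TAM-KO over TAM-WT, ± SE); red points passed an adjusted p of 0.05, grey points did not, and open diamonds give the fit with TAM-KO replicate 1 filled in from the table of the whole series. Filling moves no gene across 0, and the 7 genes with positive estimates run from 0.82 for Chil3 to 2.85 for Ly6a.

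Counted without a model, 5 of the 9 genes (Ly6c2, Ly6a, Ly6e, Plac8 and Chil3) were higher in every TAM-KO library than in every TAM-WT library, and 13.5% of all genes tested met the same condition, with 5.41% meeting the reverse. The order of levels also changed. By mean FPKM it ran S100a4, Ly6e, Plac8, Chil3, Ly6c2, Ly6a, Vcan, Ly6i and Ly6c1 in TAM-WT, and Ly6e, S100a4, Ly6a, Plac8, Ly6c2, Chil3, Vcan, Ly6i and Ly6c1 in TAM-KO. In TAM-WT the ranges of neighbors in this order overlapped, except those of Ly6e and Plac8 and those of Vcan and Ly6i. In TAM-KO the neighbors S100a4 and Ly6a, Chil3 and Vcan, and Vcan and Ly6i did not overlap, and the others did. Overlap of ranges leaves out that both genes are measured in the same libraries: in TAM-KO, Ly6c2 was above Chil3 and Ly6i above Ly6c1 in each of the 4 libraries.

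Libraries of 1 genotype also differed from each other in a shared way. TAM-WT replicate 2 had the lowest TAM-WT value of all 9 genes, and the highest was in replicate 1 or 4 for 8 of them. Within TAM-KO, the highest value of the 5 Ly6 genes was in replicate 2 for 3 genes and in replicate 3 for 2. Without TAM-WT replicate 2, the fit called 5 of the 9 genes, Ly6e being the fifth, while calls over all genes rose from 1218 of 12412 to 2755 of 12436. Without TAM-WT replicate 3 or 4, or TAM-KO replicate 1, 2 or 3, it called Plac8 and none of the other 8. In those fits, in the same order, calls over all genes fell to 151, 416, 682, 77 and 77, of 12462 to 12488 tested.

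Genes most like 3 of the markers across libraries were found by the root mean square difference of log2 CPM (counts scaled to library size), each gene centered on its mean over 7 libraries, among 10379 genes with a mean CPM of at least 5. Nearest to Ly6c2 were Zbp1, a sensor of nucleic acids, at 0.27, Flt1, the VEGF receptor 1, at 0.28, and Ifi213, of the interferon-inducible p200 family, at 0.30. For scale, Ly6c2 itself varied by 1.2 around its mean on this measure. Nearest to Ly6a were Iigp1 and Tgtp2, interferon-inducible GTPases, at 0.20 and 0.31, and Serpina3g, a protease inhibitor, at 0.34. Chil3 was nearest to Tgm2, a transglutaminase, at 0.26, followed by Gm5150 at 0.29 and Helz2, a helicase-domain coactivator, at 0.29. Of the markers in that set, Ly6e stood at place 18, Plac8 at 28, Chil3 at 124, Ly6a at 951, S100a4 at 1874 and Vcan at 8568 in the order of likeness to Ly6c2. These are descriptions over 7 libraries of 2 groups, and genes with a like difference between the groups rank high by construction.

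Promoter windows of RefSeq, 250 bases before to 50 after a start, were held for 6 of the 9 genes, with 9 windows in all, and those of Ly6a, Ly6e and Ly6i were not searched. They were searched on both strands for the core of the interferon-stimulated response element (TTTC, 2 free bases, TTTC) and of the gamma-activated site (TTCNNNGAA, which reads the same on both strands). The first was in 0 of the 9 windows and in 3.44% of all 32851 windows, and the second in 1 of the 9 and in 8.30% of all. That 1 match is in the window of Chil3 at position -172 from the start. The 250 bases before Chil3, chr3:106167565-106167814 on the minus strand of GRCm38.p6, are shown with the match in capitals.
Chil3: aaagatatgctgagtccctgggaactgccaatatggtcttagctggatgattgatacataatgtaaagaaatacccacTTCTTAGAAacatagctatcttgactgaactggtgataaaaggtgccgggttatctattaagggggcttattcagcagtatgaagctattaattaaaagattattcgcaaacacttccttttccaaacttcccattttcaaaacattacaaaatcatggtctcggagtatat

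Other genes of classical monocytes moved in both directions. Of 15 on the list, 14 were tested, of which 2 rose and 3 fell, with a median log2 fold change of -0.30. Ms4a4c, a tetraspan-like membrane gene, rose (1.36 ± 0.31 SE, edgeR's adjusted p = 0.0320). F13a1, the A chain of coagulation factor XIII, fell from 391 ± 96.3 FPKM (SD, n = 4) to 152 ± 38.2 FPKM (SD, n = 4), a log2 fold change of -1.48 (edgeR's adjusted p = 0.0139). Fn1 (fibronectin) and Lyz1 (lysozyme) fell as well, with log2 fold changes of -1.63 and -0.85. For Lyz1 that fit leaves out TAM-KO replicate 1, whose value of 326 FPKM lies inside the TAM-WT range of 318 to 461 FPKM, and with it filled in the log2 fold change was -0.70 and the call was lost (edgeR's adjusted p = 0.0618). Lyz1 was the most abundant of the list by mean FPKM over the 7 complete libraries, the measure used for every list, although F13a1 was above it in TAM-WT. Ccr2, the receptor by which classical monocytes leave the marrow and enter tissue, measured 59.1, 28.9, 45.6 and 54.3 FPKM in TAM-WT and 56.4, 45.8 and 45.1 FPKM in TAM-KO replicates 2 to 4. The groups overlapped, with a log2 fold change of -0.05 ± 0.23 (SE, edgeR's adjusted p = 0.917).

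Genes of chemokine attraction and adhesion gave 0 higher and 1 lower of 12 tested, with a median of -0.19. The 1 was Ccl12, a ligand of CCR2, with 654 ± 152 FPKM for TAM-WT and 320 ± 100.4 FPKM for TAM-KO (SD, n = 4 each; log2 fold change -1.12, edgeR's adjusted p = 0.0295). Ccl7, also a CCR2 ligand and the most abundant of the list over the 7 complete libraries (Ccl2 was slightly above it in TAM-WT), gave -0.54 (adjusted p = 0.123), Ccr1 -0.53 (adjusted p = 0.0797) and the integrin chain Itga4 0.38 (adjusted p = 0.0816). DESeq2 called 1 gene of this list higher and 3 lower.

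Genes of nonclassical monocytes gave 1 higher and 1 lower of 12 tested, with a median of 0.72, where DESeq2 called 6 higher and 3 lower and scaling to total reads gave 3 and 1. Treml4, a receptor of the TREM family, rose (0.68 ± 0.18 SE, edgeR's adjusted p = 0.0433). Fabp4, a fatty acid-binding protein and the most abundant of the list, fell from 207 ± 48.4 FPKM (SD, n = 4) to 72.8 ± 19.6 FPKM (SD, n = 4), a log2 fold change of -1.66 (edgeR's adjusted p = 0.0194). Nr4a1, the transcription factor on which nonclassical monocytes depend, gave -1.25 and did not pass (edgeR's adjusted p = 0.0566).

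Genes of mature macrophages gave 0 higher and 4 lower of 13 tested, with a median of -0.22. Those that fell were Cd163, the hemoglobin scavenger receptor, with a log2 fold change of -2.24, Mrc1, the mannose receptor CD206, with -1.13, Trem2, a lipid receptor, with -0.76, and Apoe, apolipoprotein E, with -2.55. Apoe measured 3175, 2886, 3314 and 497 FPKM in TAM-WT, so that replicate 4 stood near the TAM-KO range of 435 to 454 FPKM. C1qa, the most abundant of the list over the 7 complete libraries though below Apoe and Cd68 in TAM-WT, had means of 1795 ± 220 FPKM (SD, n = 4) for TAM-WT and 2100 ± 54.3 FPKM (SD, n = 3) for TAM-KO (edgeR's adjusted p = 0.447). Adgre1, which encodes F4/80, measured 210 ± 23.1 FPKM (SD, n = 4) and 194 ± 10.1 FPKM (SD, n = 3), and Ptprc, which encodes CD45, 56.4 ± 12.8 FPKM and 72.8 ± 13.8 FPKM (SD, n = 4 each), so both sort markers were present wherever they were measured (Adgre1 has no value in TAM-KO replicate 1).

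Interferon response genes are given because several of the 9 markers are themselves interferon-induced. All 12 tested had positive estimates, 5 rose and 0 fell, and the median was 1.34. Igtp, an interferon-inducible GTPase, measured 22.2, 5.92, 8.68 and 13.9 FPKM in TAM-WT and 34.1, 60.3, 65.7 and 36.4 FPKM in TAM-KO (log2 fold change 1.99 ± 0.39 SE, edgeR's adjusted p = 0.0269). Cxcl10, a T cell chemoattractant and the most abundant of the list, gave 0.92, Gbp3 gave 1.44, Ifi47 gave 1.52 and Irf1 gave 0.82. The summed FPKM of the 12 was 513, 206, 261 and 477 in TAM-WT and 662, 1035, 1233 and 749 in TAM-KO, lowest in TAM-WT replicate 2 as the 9 markers were. Leaving out 1 TAM-WT library turned the count of 5 into 7 (replicate 1), 8 (replicate 2), 0 (replicate 3) or 1 (replicate 4). Leaving out 1 TAM-KO library turned it into 2, 0, 0 or 3 for replicates 1 to 4, and DESeq2 gave 9.

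Of 11 other S100 genes, 8 were tested, of which 1 rose. S100a8, a myeloid alarmin of neutrophils and monocytes, measured 5.54, 2.57, 4.02 and 3.99 FPKM in TAM-WT and 73.5, 10.6, 9.13 and 15.8 FPKM in TAM-KO, so replicate 1 set most of its mean. Its log2 fold change was 2.68 (edgeR's adjusted p = 0.0481), it ran from 1.52 to 2.97 with 1 library left out and passed in 1 of those 8 fits, and the filled table gave an adjusted p of 0.0534. Its partner S100a9 reached 80.0 FPKM in that library and 5.09 to 13.3 FPKM in the other 3, and did not pass (edgeR's adjusted p = 0.0739). S100a11, the most abundant of the list, gave -0.02 (adjusted p = 0.958) and S100a1 gave 0.30 with an adjusted p just above 0.05.

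**Figure D4:**
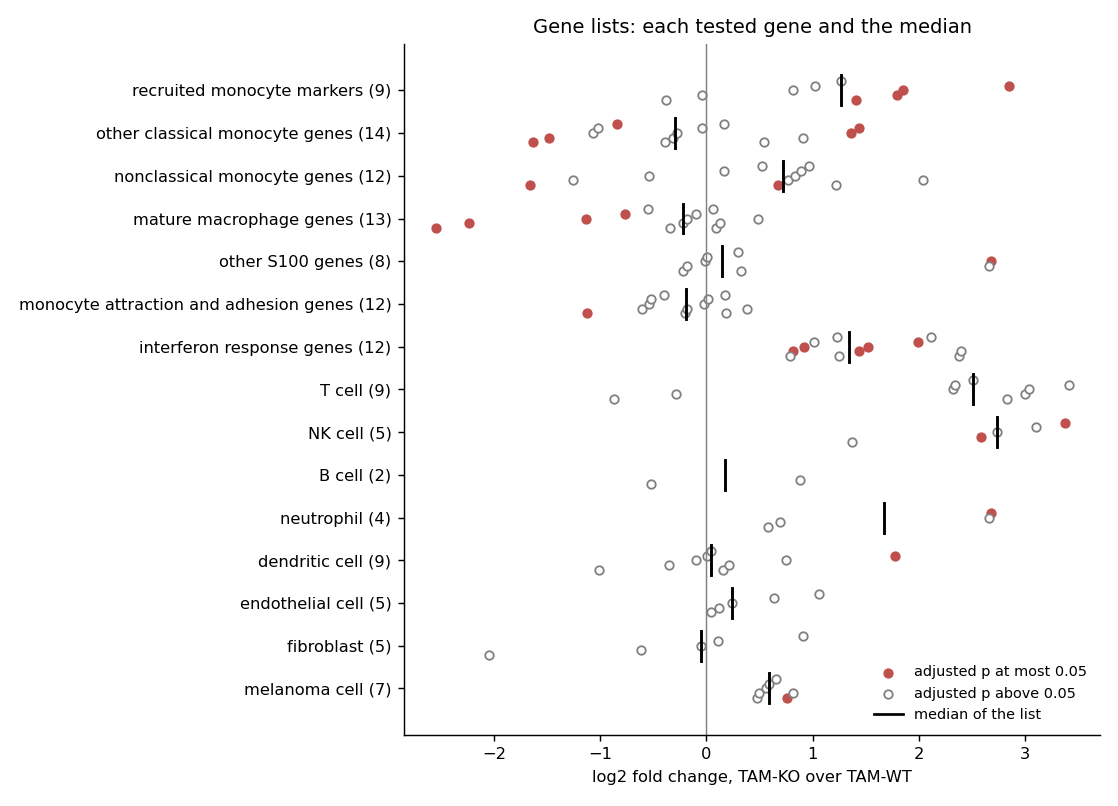
Log2 fold change (horizontal axis, TAM-KO over TAM-WT) of every tested gene of each list with at least 2 tested genes; the number tested is in parentheses, filled red points passed an adjusted p of 0.05, open points did not, and black bars are medians. The 9 markers (median 1.27) stand at the top, with other classical monocyte genes at -0.30, mature macrophage genes at -0.22, interferon response genes at 1.34 and T cell genes at 2.51.

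Markers of other cells that could be in the sort moved in some of the same libraries. T cell markers had a median log2 fold change of 2.51 over 9 tested, and edgeR called 0 of them, with 8 at an unadjusted p under 0.05, while DESeq2 called 3 higher and 1 lower. With TAM-KO replicate 1 filled in edgeR called 3 higher, and with scaling to total reads 4. The smallest adjusted p, 0.0538, belonged to Cd8b1 and Lck, followed by Cd8a at 0.0544 (log2 fold changes 3.41, 2.51 and 3.04). Of the 9, 7 had positive estimates and 2 negative ones, Cd28 at -0.87 (edgeR's adjusted p = 0.0560) and Cd4 at -0.29 (edgeR's adjusted p = 0.507). The summed FPKM of the T cell list was 18.9, 4.02, 5.67 and 4.90 in TAM-WT and 53.1, 42.8 and 20.2 in TAM-KO replicates 2 to 4. Its most abundant gene was Cd3g over the 7 complete libraries and Cd4 in TAM-WT. NK cell markers had 2 higher, Nkg7 and Eomes, of 5 tested (median 2.74), and Gzmb missed (edgeR's adjusted p = 0.0744). Klrb1c, Ncr1 and Gzma, also on the list, were too low to test. Klrb1c had means of 0.155 FPKM in TAM-WT (n = 4) and 0.087 FPKM in TAM-KO (n = 3). Ncr1 had 0.025 and 0.085 FPKM, and Gzma 0.095 and 0.52 FPKM (n = 4 each). The sums of the list were 18.6, 0.87, 1.59 and 2.56 in TAM-WT and 68.3, 56.3 and 20.8 in TAM-KO replicates 2 to 4. Nkg7, a granule protein of cytotoxic cells, measured 5.82, 0.10, 0.21 and 0.21 FPKM in TAM-WT and 14.7, 27.7, 17.8 and 9.94 FPKM in TAM-KO, with TAM-WT replicate 1 apart from the other 3. With that library left out, edgeR called 6 T cell and 5 NK cell markers higher, with medians of 4.51 and 5.57, and 1 T cell marker lower. With TAM-WT replicate 3 or 4 or TAM-KO replicate 1, 2 or 3 left out it called 0 of either list. TAM-WT replicate 1 also had the highest Ly6a of its group, and TAM-KO replicates 2 and 3 were highest for both. Ly6a and Ly6C are made by lymphocytes too, and the part of such cells in the differences was not tested. In bulk RNA, more cells of a type and more RNA per cell cannot be told apart.

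Melanoma cell markers were abundant in both groups, at summed FPKM of 2640, 4382, 2010 and 1958 in TAM-WT and 4492, 5057, 4742 and 3817 in TAM-KO. All 7 had positive estimates (median 0.59) and 1 rose, Sox10, a transcription factor of melanocytes, with a log2 fold change of 0.76 (edgeR's adjusted p = 0.0295), while DESeq2 called 5 higher. Tyrp1 gave 0.82 (adjusted p = 0.0530), Mitf 0.48 (adjusted p = 0.0613) and Pmel, the melanosome protein and the most abundant of the list, 0.59 (adjusted p = 0.132). The highest sum among TAM-WT libraries was in replicate 2, which was lowest for all 9 markers, and without it edgeR called all 7 melanoma markers higher. Without TAM-WT replicate 3 or 4, or without TAM-KO replicate 1, 2 or 3, the count was 0. The part of tumor RNA in the differences was not tested.

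Neutrophil markers gave 1 higher, S100a8, of 4 tested (median 1.67), with Csf3r as the most abundant gene (0.58, adjusted p = 0.0737) and Mpo at 0 in every library with a value. The median was 0.87 without TAM-KO replicate 1, the library in which S100a8 and S100a9 were highest. Dendritic cell markers gave 1 higher, Xcr1, of 9 tested (median 0.04), with Ccr7 as the most abundant (Batf3 in TAM-KO), Cd209a at -1.01 (adjusted p = 0.0650) and Batf3 at 0.75 (adjusted p = 0.0782). edgeR called 0 of 2 B cell markers (Cd79b, the most abundant, at 0.88 and Cd79a at -0.52), 0 of 5 endothelial markers (median 0.24, Egfl7 the most abundant, with Pecam1 at 1.06, Kdr at 0.64 and Cdh5 at 0.24) and 0 of 5 fibroblast markers (median -0.05, Col1a1 the most abundant, with Pdgfrb at 0.91, Dcn at -2.05 and Col3a1 at -0.61). In each of these 3 lists 1 gene had an unadjusted p under 0.05, and DESeq2 called 1 endothelial marker and none of the other 2 lists. Dcn rests on 0 to 15 estimated reads per library and ran from -4.00 to -1.47 with 1 library left out. It was not tested with TAM-KO replicate 1 filled in.

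**Figure D5:**
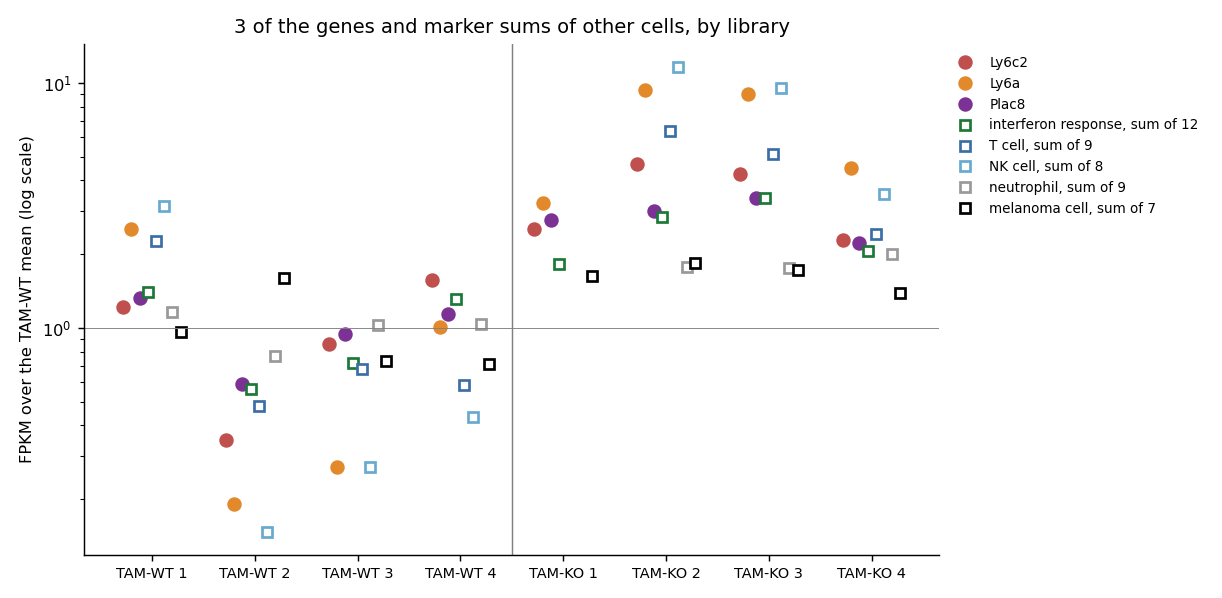
FPKM relative to the TAM-WT mean (vertical axis, log scale) in each library for Ly6c2, Ly6a and Plac8 (filled circles) and for the summed markers of other cells and of the interferon response (open squares); T cell, NK cell and neutrophil sums are not drawn for TAM-KO replicate 1, where genes are missing. TAM-WT replicate 2 is lowest for Ly6c2, Ly6a, Plac8 and the T and NK cell sums and highest among TAM-WT for the melanoma sum.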

How the data were processed

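The authors sequenced on the BGISEQ-500, aligned with Bowtie2 and deposited RSEM's expected counts (without normalization) and FPKM values (RSEM's, scaled to gene length and mapped fragments). The TPM values the authors deposited enter no result. The submitters' processing notes name HISAT2 2.0.4, Bowtie2 2.2.5, RSEM 1.2.12 and GRCm38.p6; the annotation is not given in the sources used here. Fold changes, p-values and q-values in the authors' table of the whole series were not used.

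Missing from the table of TAM-KO replicate 1 are 5311 genes; 629 of its values stand on the wrong line and were not used, and 1 line holds parts of 2 genes. The table of the whole series gives that library's value for 1188 of the 4214 genes that have a value in the other 7 tables but no usable one in its own. Where both hold a value, 2808 of 2808 were equal.

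Samples were grouped by genotype from the labels; the study gives 4 mice per group. Expected counts (10.3% not whole) were rounded to whole numbers, and edgeR 4.0.16 in R 4.3.3 (TMM, filterByExpr, glmQLFit and glmQLFTest) was run on them: 9396 genes on 8 libraries and 3016, missing from TAM-KO replicate 1, on 7, with p adjusted over both sets. The script was tested on simulated data. Coordinates are those of RefSeq for GRCm38.p6, within which the rounded starts in the deposited tables fell for all 9 genes; sequences were compared with Biopython 1.88 and GENCODE transcripts of that build.

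The 9 genes and all lists were chosen with earlier results of these data known, so no count over them is independent support. Named from each other list were its most abundant gene (mean FPKM over 7 libraries) and the 3 of smallest adjusted p, and for likeness the 3 nearest genes. Fn1, Hp, Apoe, Cd68, Ccl2, Cd4, Cd28, Ifi47, Irf1, Ccr2, Adgre1, Ptprc, Colec11, Ly6g, Chil4, Mpo, Klrb1c, Ncr1, Gzma, Arc, Jrk and Them6 were named after their values were seen. For 1 gene of these lists, single values are not reported here. Alternatives were DESeq2 1.42.0 and its size factors, limma 3.58.1 on log2(FPKM + 1) and log2(FPKM + 0.1), other filters and thresholds, a replicate block, 7 libraries, and each library left out. Scaling to total reads and filling TAM-KO replicate 1 were chosen after seeing the data.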

Additional observations from a re-analysis of the deposited data

How the results depend on the processing

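Of the 9 genes, 4 were called by the main test, 5 by DESeq2, 5 by limma on log2(FPKM + 1) and 4 by limma on log2(FPKM + 0.1). The count was 2 with at least 10 counts required in every library (Ly6i was too low to be tested, as was Ly6c1, and Ly6a missed at an adjusted p of 0.0502 with a log2 fold change of 2.85), 2 with TAM-KO replicate 1 filled in (Ly6c2 and Plac8), 1 with every gene on 7 libraries (Plac8) and 1 to 5 with 1 library left out. At an adjusted p of at most 0.01 edgeR called 0 of the 9, of which 7 had an unadjusted p under 0.05. Requiring at least 10 counts in every library gave 1076 calls among the 11763 genes tested. Filling in TAM-KO replicate 1 gave 1079 among 12399, and limma on log2(FPKM + 1) gave 1337 among 12412. Over all genes, 1218 were called, against 2253 by DESeq2, 682 on 7 libraries, 36 at an adjusted p of at most 0.01, 314 with a fold change of at least 2 as well, and 77 to 2755 with 1 library left out (77 without TAM-KO replicate 2 or 3, 151 without TAM-WT replicate 3, 416 without TAM-WT replicate 4 and 2755 without TAM-WT replicate 2). The direction split was 568 higher and 650 lower, 870 and 480 with scaling to total reads, and 922 and 415 with limma on log2(FPKM + 1), 826 and 397 on log2(FPKM + 0.1), which also moved the median of all genes to 0.11. S100a4 turned to 0.08 with limma at either pseudocount (0.0758 and 0.0760) and to 0.0535 with scaling to total reads, and ran from -0.21 to 0.19 with 1 library left out; the cause was not tested. The other 8 genes kept their direction under every alternative that tested them, and Plac8 kept its call at 0.05. Counts of other lists moved likewise with 1 library left out: 0 to 3 classical monocyte genes higher and 0 to 7 lower (lowest without TAM-KO replicate 3, highest without TAM-WT replicate 2), 1 to 6 mature macrophage genes lower, 0 to 6 T cell and 0 to 5 NK cell markers higher. Without TAM-WT replicate 1 or 2, edgeR also called 1 T cell marker lower. With TAM-KO replicate 1 filled in, Gbp3 (edgeR's adjusted p = 0.0501) and Xcr1 (edgeR's adjusted p = 0.0506) also missed. Csf3r (edgeR's adjusted p = 0.0487), the classical monocyte gene Hp (0.0492) and Mitf (0.0398) passed in that fit, as did 3 T cell markers. DESeq2 called 3 neutrophil markers, 3 other S100 genes, 2 dendritic cell markers and 1 mature macrophage gene higher, and 6 mature macrophage genes and 1 dendritic cell marker lower.

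The sum of Ly6c1 and Ly6c2 (1.78) gave 1.78 and an adjusted p of 0.0546 on 7 libraries and ran from 1.48 to 2.11 with 1 library left out. With the replicate number as a block it gave 2.00 (adjusted p = 0.0871), 3 of the 9 genes were called (Ly6a, Ly6e and Plac8) and 1080 genes overall. The labels share only a number between groups: same-numbered libraries correlated at -0.33, 0.02, -0.23 and 0.26 in their deviations from the group means. The block also gave Ly6a at 4.02 and called 6 T cell, 3 NK cell and 4 melanoma cell markers higher, and 1 T cell marker lower. Depth was least for Ly6c1 and Ly6i, at 5 to 95 estimated reads.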
